A study of Mus musculus with 16 samples.

Results

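The 10 genes described here encode the lipases of fat breakdown and the receptors and channels that govern it in adipose tissue: *Pnpla2*, *Abhd5*, *Lipe*, *Mgll*, *Aqp7*, *Adrb3*, *Adora1*, *Hcar2*, *Pde3b* and *Npr3*. They were chosen by name, as every table row whose RefSeq identifier carries one of these symbols, and they make up 51 of 130343 rows and 10 of 35556 gene symbols. RNA was sequenced from adipose tissue (AT) of male wild-type C57BL/6J mice. From 10 weeks of age, 4 obese mice received a diet that held 0.2% cholesterol and drew 42% of its calories from fat for 12 to 14 months, while 4 lean mice were kept on normal laboratory chow. Each mouse gave 1 library of inguinal subcutaneous AT (SAT, left and right pads combined) and 1 of mesenteric visceral AT (VAT), so that 4 groups of 4 libraries were compared and the question was how the long-term diet changed each tissue. No gene was deleted or introduced, 1 inbred strain and only males were studied, and visible vessels were trimmed from the tissue, so the values are those of bulk tissue with all its remaining cell types.

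In adipocytes, triglyceride is hydrolyzed stepwise at the surface of the lipid droplet. Adipose triglyceride lipase (*Pnpla2*), switched on by its coactivator *Abhd5*, releases the first fatty acid, hormone-sensitive lipase (*Lipe*) cleaves the diglyceride, and monoglyceride lipase (*Mgll*) frees the glycerol that leaves through the channel *Aqp7*. Catecholamines start the pathway through the beta-adrenergic receptor *Adrb3*, which raises cAMP and so activates protein kinase A, whereas *Adora1* and *Hcar2* couple to inhibitory G proteins and *Pde3b* degrades cAMP downstream of insulin. Natriuretic peptides drive lipolysis through cGMP, and their clearance receptor *Npr3* removes them.

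Total counts ranged from 1256082 (VAT of lean mouse 1) to 16614407 (SAT of obese mouse 3), so that 1 count stood for 0.796 to 0.0602 CPM (counts scaled to the library total), and VAT of obese mouse 1 was the other shallow library (2247737 counts). Levels below are CPM scaled by the trimmed mean of M-values (TMM), summed over the rows of a gene, and limits from counts cover counting error only. Of 8 listed adipocyte markers, *Plin4* was at 0 in all libraries and the other 7 were present in every group, mesothelial markers summed to 251 to 607 CPM in VAT and to at most 1.41 CPM in SAT, and the abundant gene *Scd1* took 23.7 to 25.7% of all counts in SAT of obese mice against 3.28 to 14.0% in lean mice. In VAT, 4 of 7 tested adipocyte markers were lower and 7 of 7 macrophage markers higher in obese mice, with summed levels of 11745 to 23243 against 19959 to 32362 CPM for adipocytes and 5414 to 7650 against 2502 to 3244 CPM for macrophages. In SAT, 1 adipocyte marker was higher and 2 were lower, and 5 of 7 macrophage markers were higher. Also in VAT, 3 of 4 T cell markers, 3 of 5 B cell markers and 5 of 6 lipid-associated macrophage markers were higher (1 of these 6 was lower), and 2 of 4 markers of intestinal epithelium were lower. Of 4 brown and beige adipocyte markers, 1 was higher and 2 were lower in each tissue. In SAT, 1 of 4 smooth muscle and pericyte markers was higher, 1 of 2 skeletal muscle markers was lower, and of 6 lipid-associated macrophage markers 1 was higher and 1 lower. These marker calls are at an adjusted p below 0.05 by edgeR. Over all tested genes, 6.35% were higher and 5.25% lower in SAT, and 6.89% and 5.28% in VAT. Single calls in such short lists are not read as a shift of a cell type. Ratios of the members to adipocyte markers are given further on, and the part of the other cell types in the results was not tested. Fewer cells of a type and less RNA per cell cannot be told apart in bulk tissue.

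Of the 51 rows, 24 had no count in any library, 27 had counts and 22 passed the filter of more than 1 CPM in at least 3 of 16 libraries. All 10 genes kept at least 1 tested row. Reads were assigned to transcripts, and the treatment of reads shared by several transcripts is not stated, so a gene's counts need not follow its total RNA. *Pnpla2* had all of its 1309 counts in the noncoding transcript NR_028142, with both of its coding rows at 0. *Mgll*, *Adora1*, *Hcar2* and *Pde3b* likewise had counts in a single row each, and *Pde3b* had only 157 counts in the 16 libraries together, in the noncoding XR_001785490. In *Adrb3*, NM_013462 held 99.0% of the counts, whereas the 41422 counts of *Lipe* were spread over 6 rows, of which XM_030242178 held the largest share (37.6%). Because of this, levels are compared between groups and not between genes.

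With counts summed per gene, 1 member was upregulated (*Adora1*) and 1 downregulated (*Adrb3*) in SAT of obese mice at an adjusted p below 0.05 (edgeR quasi-likelihood test), where 6.35% of the 12185 tested genes were higher and 5.25% lower. In VAT, 4 members were downregulated (*Lipe*, *Hcar2*, *Npr3* and *Adrb3*) and 0 were upregulated, where 5.28% of tested genes were lower and 6.89% higher. At an unadjusted p below 0.05, VAT held 7 lower members and 0 higher ones, where 11.9% of tested genes were lower and 12.9% higher, and DESeq2 also called 0 higher. The median log2 fold change of the 10 members was −0.25 in SAT and −0.80 in VAT, against −0.00024 and −0.016 over all tested genes. No call over the summed counts passed the limit of 1.5 on the log2 scale that the study used, the largest being *Adora1* in SAT (1.23) and *Adrb3* in both tissues (−1.14 and −1.0).

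**Figure D1:**
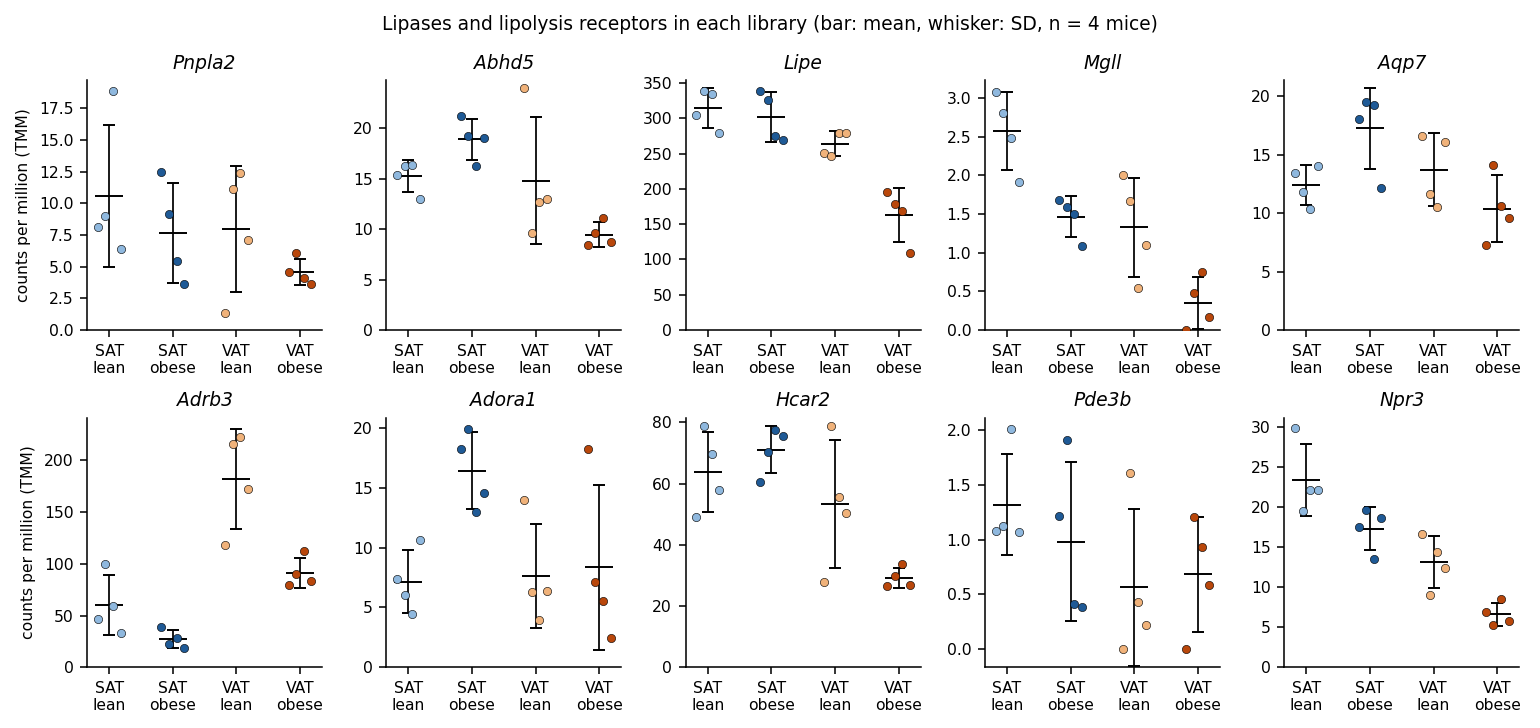
TMM-scaled CPM (linear vertical axes, a separate scale for each gene) of the 10 genes in each of 16 libraries. Points are libraries, horizontal bars group means and whiskers SD (n = 4 mice a group). In VAT the lean and obese points of *Lipe*, *Adrb3* and *Npr3* do not overlap, and those of *Hcar2* overlap through 1 shallow lean library at 28.0 CPM.

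Hormone-sensitive lipase differed by diet in VAT. *Lipe* (chromosome 7, 25078880 to 25098135, minus strand, GRCm39) measured 251, 247, 279.5 and 279 CPM in VAT of lean mice 1 to 4, and 196, 178, 169 and 109.2 CPM in VAT of obese mice 1 to 4. All obese libraries lay below all lean ones. The log2 fold change was −0.70 (SE 0.14, 95% interval −0.99 to −0.41, adjusted p = 0.0020), a 1.63-fold lower level. In SAT, *Lipe* measured 305, 339.5, 334 and 279 CPM in lean mice and 339, 326, 276 and 269 CPM in obese mice, and the groups overlapped with a log2 fold change of −0.057 (SE 0.14, interval −0.35 to 0.23, adjusted p = 0.85). Of its 5 tested rows, 3 were lower in VAT, namely XM_006539572 (−0.78, adjusted p = 0.0027), XM_030242178 (−0.67, adjusted p = 0.0124) and NM_001039507 (−0.67, adjusted p = 0.0167). The RefSeq mRNA NM_010719 had a log2 fold change of −0.33 in VAT (adjusted p = 0.48). The shares of the rows within *Lipe* stayed close between groups, with NM_001039507 at 31.1 ± 6.30% in VAT of lean and 30.6 ± 0.76% in VAT of obese mice (SD, n = 4). Without obese mouse 4, NM_001039507 and XM_030242178 missed the threshold in VAT (adjusted p = 0.0648 and 0.0509), and NM_001039507 also without lean mouse 3 (adjusted p = 0.0575), while the gene sum kept it in every fit that left out 1 mouse (adjusted p at most 0.0140).

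The windows around the annotated starts of *Lipe*, 250 bases before to 50 bases after each start (RefSeq, GRCm38.p6), are shown because 6 transcript rows share this gene and the 2 windows differ in their motifs. Capitals mark matches on either strand to the 8 motifs searched. These were the GC box spelled GGGCGG, the E-box with the letters CACGTG, the forkhead motif written as GTAAACA, and the nuclear receptor element with the letters AGGTCA. Also searched were the cAMP response element in its full palindromic form, TGACGTCA, the CCAAT box by the letters of its name, the TATA box in the form of TATAAA, and the C/EBP element in the form of TTGCGCAA. Adjoining matches can overlap, and GC boxes did so in the upstream window.
Lipe, upstream start, minus strand, chr7:25395938-25396237: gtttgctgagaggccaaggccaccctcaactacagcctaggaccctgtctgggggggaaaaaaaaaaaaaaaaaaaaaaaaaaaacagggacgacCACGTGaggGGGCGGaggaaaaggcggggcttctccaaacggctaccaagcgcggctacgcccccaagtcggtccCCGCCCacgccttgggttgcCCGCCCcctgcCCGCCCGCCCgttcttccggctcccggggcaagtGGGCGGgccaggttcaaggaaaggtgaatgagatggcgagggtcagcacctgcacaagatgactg
Lipe, downstream start, minus strand, chr7:25390063-25390362: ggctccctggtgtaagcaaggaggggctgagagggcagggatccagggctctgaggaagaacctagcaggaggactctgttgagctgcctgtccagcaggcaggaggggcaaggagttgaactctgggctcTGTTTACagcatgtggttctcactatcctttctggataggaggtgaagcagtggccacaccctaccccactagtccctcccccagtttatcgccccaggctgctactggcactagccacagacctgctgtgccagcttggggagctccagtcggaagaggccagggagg
The upstream window held 6 GC boxes and 1 E-box, and the downstream window 1 forkhead match 119 bases before the start. Among all 32851 promoter windows of this length, 35.66% held a GC box, 7.15% an E-box and 3.65% the forkhead motif. A cAMP response element was found in 1.79% of all windows and in none of the 11 windows that cover 7 of these genes, which says only that these letters are not there. *Adrb3*, *Hcar2* and *Pde3b* had no window.

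The other steps of hydrolysis showed no call at the gene level. *Mgll* (chromosome 6, 88652108 to 88805342, plus strand) was a low gene, at 3.07, 2.81, 2.49 and 1.92 CPM in SAT of lean mice and 1.68, 1.59, 1.51 and 1.08 CPM in SAT of obese mice. These groups did not overlap, but the log2 fold change of −0.83 (SE 0.38) had an adjusted p of 0.16. In VAT it measured 2.00, 1.67, 0.54 and 1.1 CPM in lean mice, on 3, 28, 5 and 10 counts, and 0, 0.48, 0.75 and 0.17 CPM in obese mice, on 0, 6, 8 and 2 counts. The VAT groups overlapped, and the log2 fold change of −1.52 (SE 0.50) just missed the threshold (adjusted p = 0.0524). It passed with DESeq2 (adjusted p = 0.0434), with the quasi-likelihood setting legacy=FALSE (adjusted p = 0.0394) and without lean mouse 3 (adjusted p = 0.0355) or obese mouse 3 (adjusted p = 0.0345). In the other 12 of 16 alternatives it was not called, and without single mice the log2 fold change ranged from −2.0 to −1.15, with an adjusted p of up to 0.28.

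*Pnpla2* (chromosome 7, 141034404 to 141040656, plus strand) ranged from 6.39 to 18.8 CPM in SAT of lean mice and from 3.64 to 12.5 CPM in SAT of obese mice (log2 fold change −0.50, SE 0.38, adjusted p = 0.44). In VAT it ranged from 1.33 to 12.4 CPM in lean and from 3.65 to 6.05 CPM in obese mice (−0.97, SE 0.41, adjusted p = 0.14), and the lean value of 1.33 CPM rested on 2 counts of the shallowest library. With no filter on low counts the same difference in VAT had an adjusted p of 0.0027. All of these counts stand in the row of the noncoding transcript, so they describe that row. Whether they follow the lipase mRNA cannot be told, since the treatment of shared reads is not stated. *Abhd5* (chromosome 9, 122180621 to 122222936, plus strand) measured 13.0 to 16.3 CPM in SAT of lean and 16.2 to 21.2 CPM in SAT of obese mice (0.30, SE 0.19, adjusted p = 0.34). In VAT its level was 9.59 to 24.0 CPM in lean and 8.38 to 11.1 CPM in obese mice (−0.50, SE 0.21, adjusted p = 0.14), the highest lean value again being that of the shallowest library. The glycerol channel *Aqp7* (chromosome 4, 41032835 to 41048211, minus strand) was at 10.3 to 14.1 CPM in SAT of lean and 12.2 to 19.5 CPM in SAT of obese mice (0.48, SE 0.20, adjusted p = 0.13). Its VAT levels of 10.6 to 16.6 CPM in lean and 7.24 to 14.1 CPM in obese mice gave −0.31 (SE 0.21, adjusted p = 0.41).

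The receptor that starts the pathway was lower in obese mice in both tissues. *Adrb3* (chromosome 8, 27715443 to 27740925, minus strand) measured 118, 215, 223 and 172 CPM in VAT of lean mice and 79.6, 90.4, 112 and 83.6 CPM in VAT of obese mice. The VAT groups did not overlap, and the log2 fold change was −1.0 (SE 0.26, interval −1.54 to −0.47, adjusted p = 0.0119), a 2.00-fold lower level. In SAT it measured 47.1, 100.1, 59.5 and 33.0 CPM in lean mice and 38.8, 22.8, 28.5 and 19.0 CPM in obese mice. Here obese mouse 1 lay above lean mouse 4, and the log2 fold change was −1.14 (SE 0.26, interval −1.68 to −0.59, adjusted p = 0.0067). The SAT call held without each mouse in turn, with a log2 fold change of −0.79 (adjusted p = 0.0463) once lean mouse 2, its highest library, was left out. The VAT call was lost without lean mouse 3 (−0.86, adjusted p = 0.0659) or obese mouse 4 (−0.94, adjusted p = 0.0513).

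Both tested rows of *Adrb3* were lower in SAT. NM_013462 had a log2 fold change of −1.12 (adjusted p = 0.0080), and the noncoding XR_003947220, with at most 1.23 CPM in SAT, had −2.40 (SE 0.71, adjusted p = 0.0316), the only member row called for the diet in either tissue with a change beyond 1.5. It lost the call without lean mouse 2 (adjusted p = 0.0588), lean mouse 3 (0.1003), obese mouse 1 (0.0843), obese mouse 2 (0.0771) or obese mouse 4 (0.0833), and NM_013462 lost it in SAT without lean mouse 2 (adjusted p = 0.0566). In VAT, NM_013462 had −0.97 (adjusted p = 0.0165), and its call was lost without lean mouse 3 (adjusted p = 0.0673) or obese mouse 4 (adjusted p = 0.0567). Over all rows of the table, 6.21% were higher and 4.84% lower in SAT, and 6.84% higher and 4.08% lower in VAT. Of the 22 member rows, 1 was higher and 3 were lower in SAT, and 0 were higher and 6 lower in VAT.

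The gene whose level across the 16 libraries was most like that of *Adrb3* was *Gm45470* (Pearson r = 0.97 among 10687 genes, a description), a noncoding gene on the opposite strand that overlaps *Adrb3*. It measured 75.8 ± 15.3 CPM in VAT of lean and 31.1 ± 8.94 CPM in VAT of obese mice (SD, n = 4), with log2 fold changes of −1.3 in VAT (adjusted p = 0.0049) and −1.29 in SAT (adjusted p = 0.0084). At *Npr3* the overlapping opposite-strand *Gm5144* likewise came first (r = 0.95). At *Lipe* the overlapping 4732471J01Rik was not among the 3 genes most like it. It fell in VAT (−1.01, adjusted p = 0.0023) and also in SAT (−0.69, adjusted p = 0.0242), where *Lipe* had −0.057. The strand setting of the counting is not stated, so reads of a gene and its opposite-strand partner cannot be told apart. Next in likeness were *Nnt* (0.92) and 1700029J07Rik (0.91) for *Adrb3*, and *Auts2* (0.93) and *Gm32878* (0.91) for *Npr3*. The gene most like *Lipe* was *Fbxw8* (0.95), followed by *Apex2* (0.94), and the gene most like *Pnpla2* was *Oplah* (0.88), followed by *Gm41881* (0.87) and *Ldha* (0.87). All of these correlations are over the same 16 libraries of 2 tissues and 2 diets.

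Among the receptors that hold lipolysis back, *Adora1* rose in SAT and *Hcar2* fell in VAT. The adenosine receptor *Adora1* (chromosome 1, 134126948 to 134163579, minus strand) measured 7.39, 6.04, 4.49 and 10.7 CPM in SAT of lean mice and 18.2, 19.9, 13.0 and 14.6 CPM in SAT of obese mice. Every obese library exceeded every lean one, and the log2 fold change was 1.23 (SE 0.39, interval 0.43 to 2.03, adjusted p = 0.0410), or 2.35-fold. This call was lost with DESeq2 (adjusted p = 0.0901) and without lean mouse 1 (0.0522), lean mouse 2 (0.1129), lean mouse 3 (0.1147), obese mouse 2 (0.1044) or obese mouse 3 (0.0508), with a log2 fold change of at least 1.05 throughout. In VAT, *Adora1* measured 14.0, 6.26, 3.98 and 6.36 CPM in lean mice and 18.3, 7.10, 5.50 and 2.49 CPM in obese mice (log2 fold change 0.13, SE 0.43, adjusted p = 0.90). The highest value of each VAT group was its shallow library, and without these 2 libraries the log2 fold change was −0.15 (adjusted p = 0.83).

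The window at the upstream start of *Adora1* is shown because this is the one member that rose.
Adora1, upstream start, minus strand, chr1:134235408-134235707: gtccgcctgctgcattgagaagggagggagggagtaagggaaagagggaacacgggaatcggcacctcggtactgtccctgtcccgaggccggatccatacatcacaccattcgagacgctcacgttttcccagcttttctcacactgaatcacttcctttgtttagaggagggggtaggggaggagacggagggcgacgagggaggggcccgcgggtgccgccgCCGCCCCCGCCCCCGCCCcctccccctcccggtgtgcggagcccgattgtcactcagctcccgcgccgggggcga
Its 3 GC boxes lie 25, 19 and 13 bases before the start, and the window at the downstream start held none of the motifs.

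*Hcar2*, the receptor for niacin and beta-hydroxybutyrate, is annotated on chromosome 5 (124001633 to 124003562, minus strand) with no overlapping gene. In VAT it measured 28.0, 78.9, 55.6 and 50.4 CPM in lean mice and 26.7, 29.7, 33.7 and 26.9 CPM in obese mice. Of the lean libraries, 3 lay above all obese ones, and the shallow library of lean mouse 1, with 42 counts, lay among them. The log2 fold change was −0.91 (SE 0.20, interval −1.33 to −0.48, adjusted p = 0.0047), and it was −1.04 (adjusted p = 0.00095) without the 2 shallow libraries. In SAT, *Hcar2* measured 49.0, 78.7, 69.8 and 57.8 CPM in lean and 60.6, 70.4, 77.7 and 75.7 CPM in obese mice. These groups overlapped (log2 fold change 0.16, SE 0.20, interval −0.25 to 0.56, adjusted p = 0.67).

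*Pde3b* (chromosome 7, 114013685 to 114138486, plus strand) was too low for a firm statement, with group means of 0.56 to 1.32 CPM and no count in 2 VAT libraries. Counts of 0 in these 2 shallow libraries allow up to 2.39 CPM (lean mouse 1) and 1.33 CPM (obese mouse 1) before TMM scaling. Its log2 fold changes were −0.50 (SE 0.60, adjusted p = 0.65) in SAT and 0.060 (SE 0.67, adjusted p = 0.97) in VAT, and a difference was not detectable at this depth.

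The natriuretic peptide clearance receptor was lower in VAT of obese mice. *Npr3* (chromosome 15, 11839982 to 11907373, minus strand) measured 16.6, 9.0, 14.4 and 12.4 CPM in VAT of lean and 6.86, 5.32, 8.49 and 5.81 CPM in VAT of obese mice. No obese library reached the lowest lean one. The log2 fold change was −0.93 (SE 0.22, interval −1.38 to −0.48, adjusted p = 0.0063), or 1.91-fold lower, and the call held without each mouse in turn (adjusted p at most 0.0410). In SAT it measured 29.9, 19.5, 22.1 and 22.2 CPM in lean and 17.5, 19.6, 13.5 and 18.6 CPM in obese mice. The SAT groups overlapped by a narrow margin, and the log2 fold change was −0.44 (SE 0.19, interval −0.84 to −0.045, adjusted p = 0.14).

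The transcript rows of *Npr3* did not behave alike in SAT. XM_030248377 was lower (−0.82, adjusted p = 0.0205) with no overlap between groups, whereas NM_001286395, the row with most counts, had −0.19 (adjusted p = 0.63). The share of XM_030248377 in the counts of *Npr3* was 48.7 ± 3.69% in SAT of lean and 37.2 ± 3.31% in SAT of obese mice (SD, n = 4), and the difference of the rows itself was not tested. In VAT it was NM_001286395 that fell (−0.98, adjusted p = 0.0100), with XM_030248377 at −0.47 (adjusted p = 0.32). The other 2 tested rows, XM_006520030 and XM_006520031, had −1.75 (adjusted p = 0.097) and −0.79 (adjusted p = 0.48) in VAT, and −0.41 (adjusted p = 0.67) and 0.39 (adjusted p = 0.69) in SAT. The SAT call of XM_030248377 was lost with no filter on low counts (adjusted p = 0.0504) and without lean mouse 1 (0.0699), obese mouse 1 (0.0563) or obese mouse 3 (0.0825), and the VAT call of NM_001286395 without lean mouse 3 (0.0726) or obese mouse 4 (0.0616).

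The window at the start of *Npr3* is shown because it stands apart from the others in base composition.
Npr3, minus strand, chr15:11907322-11907621: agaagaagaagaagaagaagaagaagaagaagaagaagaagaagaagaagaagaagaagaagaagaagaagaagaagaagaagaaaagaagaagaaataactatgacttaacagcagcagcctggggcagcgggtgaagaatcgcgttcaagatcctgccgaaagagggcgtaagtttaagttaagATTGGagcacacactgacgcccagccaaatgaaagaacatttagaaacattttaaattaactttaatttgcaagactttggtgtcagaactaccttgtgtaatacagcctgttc
It had 39% G and C against a median of 52.7% over all windows and 49.67 to 72.33% in the other windows of these genes, opened with a run of a repeated triplet, and held 1 CCAAT box 64 bases before the start, a motif present in 37.41% of all windows.

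**Figure D2:**
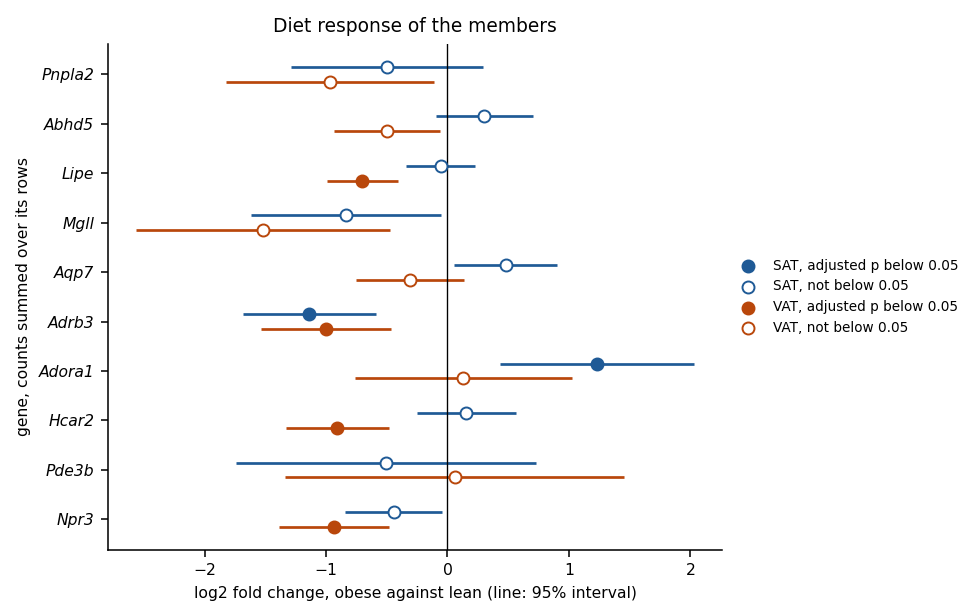
Log2 fold change of obese against lean mice (horizontal axis) for the 10 genes, in SAT (blue, upper of each pair) and VAT (orange, lower). Points are edgeR estimates, lines are 95% intervals, and filled points have an adjusted p below 0.05: *Adrb3* and *Adora1* in SAT, and *Lipe*, *Adrb3*, *Hcar2* and *Npr3* in VAT.

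The diet response was compared between tissues in a fit blocked by mouse, and 2 members had a lower response in VAT than in SAT (*Hcar2* and *Lipe*) and 0 a higher one, where 1.62% of tested genes were lower and 0.854% higher. At an unadjusted p below 0.05, 5 members were lower and 0 higher, where 8.26% of tested genes were lower and 6.87% higher, and DESeq2 called 0 higher. The level of *Hcar2* in VAT was 0.57, 1.0, 0.80 and 0.87 times that in SAT of the same mouse in lean mice 1 to 4, and 0.44, 0.42, 0.43 and 0.36 times in obese mice. All ratios of obese mice lay below all those of lean mice. The difference of the log2 fold changes was −1.0 (SE 0.18, interval −1.38 to −0.61, adjusted p = 0.0044). For *Lipe* the same ratio was 0.82, 0.73, 0.84 and 1.0 in lean mice and 0.58, 0.55, 0.61 and 0.41 in obese mice, again without overlap, and the difference was −0.67 (SE 0.16, interval −0.99 to −0.34, adjusted p = 0.0251). Both calls rest on the block: without it, *Hcar2* had −1.06 (adjusted p = 0.0674) and *Lipe* −0.64 (adjusted p = 0.119). That of *Hcar2* held without each mouse in turn (adjusted p at most 0.0447), and that of *Lipe* was lost without lean mouse 3 (adjusted p = 0.1009), lean mouse 4 (0.1253), obese mouse 2 (0.0678) or obese mouse 4 (0.1404). The tested rows of *Lipe* missed the threshold for the difference, with adjusted p from 0.074 (NM_001039507) to 0.97 (XM_030242180). Of 7 tested adipocyte markers, 1 had a lower response in VAT and 0 a higher one (median difference −0.45). Relative to the 4 adipocyte markers described below, the diet difference of *Lipe* was −0.10 in VAT and 0.035 in SAT. That of *Hcar2* was −0.15 and 0.27. The part of cell types in these differences was not tested.

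For the other 8 members the difference between tissues missed the threshold. *Adrb3*, lower in both, had a difference of 0.13 (SE 0.25, interval −0.40 to 0.66, adjusted p = 0.87), and *Npr3* had −0.54 (SE 0.27, interval −1.11 to 0.03, adjusted p = 0.36). *Adora1* had the largest negative difference, −1.27 (SE 0.43, adjusted p = 0.13), which passed without VAT and SAT of obese mouse 1 (−1.64, adjusted p = 0.0261), without the 2 shallow libraries (−1.43, adjusted p = 0.0422) and with no filter on low counts (adjusted p = 0.0081). The other 10 of 13 alternatives left it uncalled, among them the fit with no mouse block (−1.1, adjusted p = 0.41), and without single mice it ranged from −1.64 to −0.88 (adjusted p up to 0.37). *Aqp7* (−0.81, adjusted p = 0.10) and *Abhd5* (−0.80, adjusted p = 0.15) missed the threshold.

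VAT was also compared with SAT of the same mice within each diet. In lean mice, 1 member was higher (*Adrb3*) and 1 lower (*Npr3*) in VAT than in SAT, where 8.67% of tested genes were higher and 7.22% lower. *Adrb3* was 3.18-fold higher in VAT (log2 fold change 1.67, SE 0.18, adjusted p = 1.1e-06), and *Npr3* had −0.85 (SE 0.19, adjusted p = 0.0034), both with no overlap between tissues. In obese mice, 1 member was again higher (*Adrb3*) and 7 were lower, where 16.3% of tested genes were higher and 15.1% lower. *Adrb3* was 3.47-fold higher (1.80, SE 0.18, adjusted p = 2.9e-07). The lower members were *Mgll* (−1.83), *Npr3* (−1.39), *Adora1* (−1.3), *Hcar2* (−1.29), *Abhd5* (−0.97), *Lipe* (−0.92) and *Aqp7* (−0.69), and VAT lay below SAT in all libraries for each of these but *Adora1* and *Aqp7*. The call of *Mgll* was lost without obese mouse 4 (adjusted p = 0.0573). *Pnpla2* (−0.56, adjusted p = 0.13) and *Pde3b* (−0.14, adjusted p = 0.89) passed in neither direction. Of 7 tested adipocyte markers, 4 were lower and 0 higher in VAT than in SAT of obese mice (median log2 fold change −0.52). All 7 tested macrophage markers were higher there (median 1.13). In lean mice, 2 adipocyte markers were lower and 0 higher, and 6 of 7 macrophage markers were higher. The part of cell types in these tissue differences was not tested.

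**Figure D3:**
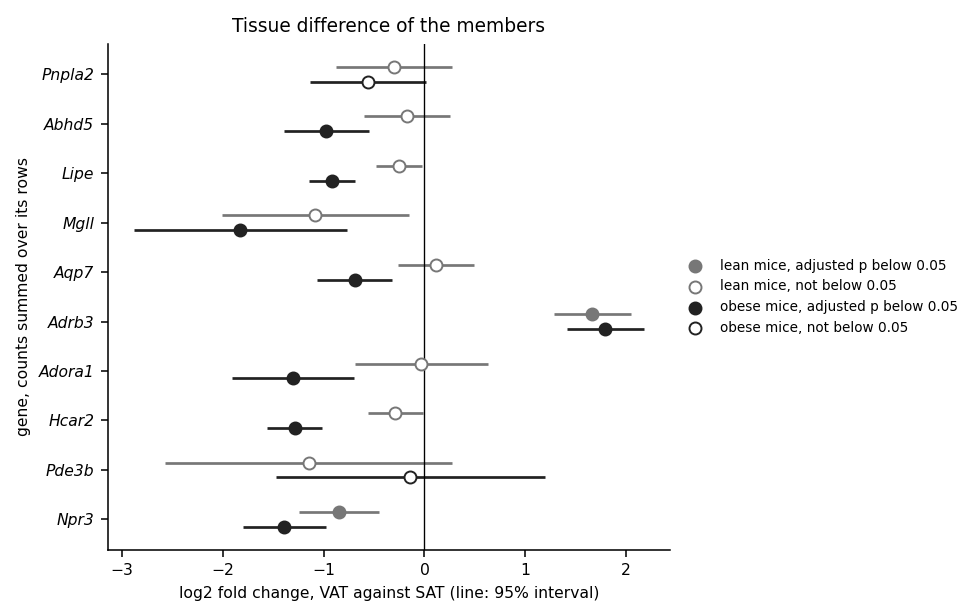
Log2 fold change of VAT against SAT (horizontal axis) for the 10 genes in lean (gray, upper of each pair) and obese mice (black, lower), with 95% intervals from edgeR with the mouse as a block and filled points at an adjusted p below 0.05. *Adrb3* lies to the right of 0 under both diets (1.67 and 1.80), and 7 genes lie to the left of 0 with filled points in obese mice against 1, *Npr3*, in lean mice.

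The level of the stimulating receptor was also set against that of each inhibiting receptor within a library. These ratios were chosen after the values were seen and were not tested. *Adrb3* stood at a median of 3.71 times the CPM of *Hcar2* in VAT of lean mice (2.73 to 4.21) and 3.08 times in VAT of obese mice (2.99 to 3.33). In SAT the median was 0.91 in lean mice (0.57 to 1.27) and 0.35 in obese mice (0.25 to 0.64). Against *Adora1*, *Adrb3* stood at a median of 30.7 times in VAT of lean mice (8.43 to 55.9) and 16.5 times in VAT of obese mice (4.35 to 33.6), with overlapping ranges. In SAT this median was 9.80 in lean mice (3.10 to 16.6) and 1.72 in obese mice (1.14 to 2.19), with no overlap. These ratios compare groups only, since CPM is not scaled to transcript length.

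Because adipocyte and macrophage markers moved with the diet in VAT, each member was also set against 4 adipocyte markers (*Adipoq*, *Plin1*, *Cidec* and *Fabp4*) of the same library, as the log2 ratio of CPM plus 0.5 to their mean. In VAT these 4 markers had differences of log2 means, obese minus lean, of −0.64, −0.63, −0.68 and −0.53 (mean −0.62), and in SAT their mean was −0.095. The other 3 listed markers with counts had 0.18 (*Trarg1*), −0.84 (*Adig*) and −1.21 (*Cfd*) in VAT and 0.65, −0.69 and −1.46 in SAT. Relative to the mean of the 4 markers, the VAT differences shrank to −0.10 for *Lipe*, −0.15 for *Hcar2*, −0.34 for *Adrb3* and −0.30 for *Npr3*, from −0.72, −0.77, −0.96 and −0.92 on the same log2 scale, and the groups overlapped for each of these genes. In SAT, *Adora1* kept 1.28 and *Adrb3* −0.96. By the two-sided exact permutation test over 70 assignments of the mice, whose smallest p is 0.0286, *Adora1* in SAT was the only 1 of 20 comparisons to reach that value. After adjustment over the 20, a comparison could pass only if at least 12 of them reached that smallest p, so the adjusted permutation p of at least 0.245 says little. The 4 genes called in VAT had permutation p-values between 0.0857 (*Npr3*) and 0.66 (*Hcar2*) for the ratio there, by the exact test. Against all 7 listed markers with counts, a choice made after the values were seen, the mean marker difference was again −0.62 in VAT and the differences of *Lipe*, *Hcar2*, *Adrb3* and *Npr3* were −0.10, −0.15, −0.34 and −0.30. In SAT, where the mean of the 7 was −0.27, *Adora1* then had 1.46 and *Adrb3* −0.79, and *Abhd5* (0.57), *Aqp7* (0.71) and *Adora1* reached the smallest p.

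**Figure D4:**
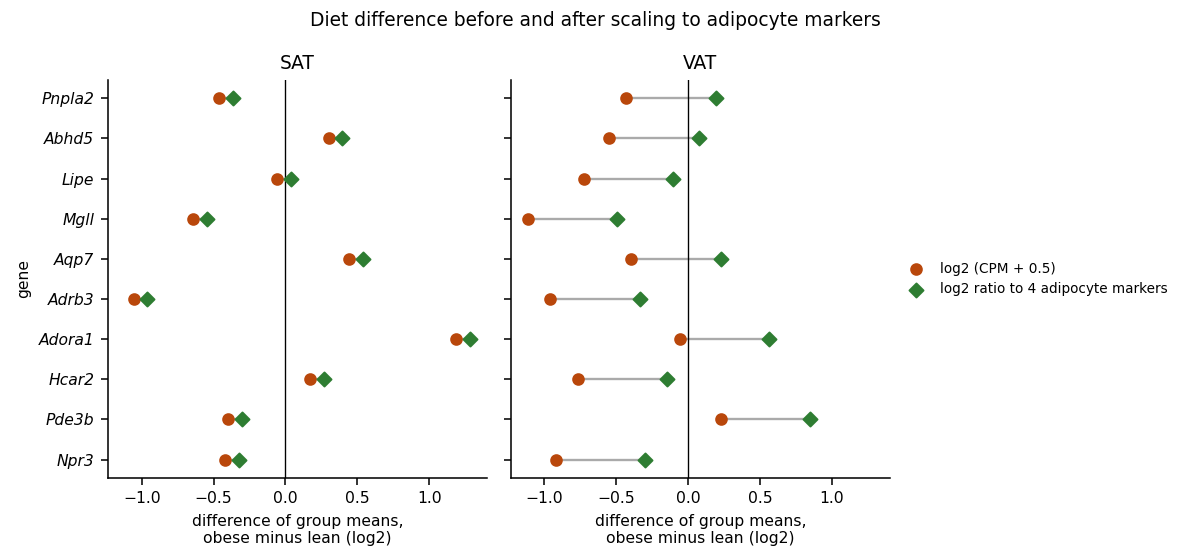
Difference of group means, obese minus lean, for the 10 genes in SAT (left) and VAT (right), as log2 of CPM plus 0.5 (orange circles) and as the log2 ratio to 4 adipocyte markers (green diamonds). In VAT every diamond lies 0.62 to the right of its circle, which brings *Lipe* from −0.72 to −0.10, and in SAT the 2 values lie 0.095 apart.

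The rest of the pathway was read from 7 hand-written lists, to be set against 6.35% higher and 5.25% lower calls over all tested genes in SAT, and 6.89% and 5.28% in VAT (at an unadjusted p below 0.05, 13.7% and 12.3% in SAT and 12.9% and 11.9% in VAT). In the longest list, of 16 tested genes, 1 call in a direction is a share close to these. In the list of antilipolytic receptors and inhibitory G proteins, 1 of 11 tested genes rose and 3 fell in SAT, and 4 fell and 0 rose in VAT (1 higher at an unadjusted p below 0.05). The prostaglandin receptor *Ptger3* went from 33.5 ± 10.3 to 85.0 ± 6.38 CPM in SAT (log2 fold change 1.36, adjusted p = 5.4e-05; SD, n = 4). The lactate receptor *Hcar1* fell in VAT from 289 ± 99.3 to 84.6 ± 5.38 CPM (−1.78, adjusted p = 1.3e-05) and also in SAT (−0.87, adjusted p = 0.0105), and the G protein subunit *Gnai1* fell in both tissues (−0.50 in SAT, adjusted p = 0.0050, and −0.94 in VAT, adjusted p = 6.7e-06). The fatty acid receptor *Ffar4* was lower in both tissues (−0.62 in SAT, adjusted p = 0.0079, and −0.51 in VAT, adjusted p = 0.0271). The succinate receptor *Sucnr1* was lower in VAT (−0.63, adjusted p = 0.0031) and had −0.35 in SAT (adjusted p = 0.087). *Hcar1* and *Ptger3*, like *Hcar2*, had a lower response in VAT than in SAT (differences of −0.87, adjusted p = 0.0045, and −1.1, adjusted p = 0.0037).

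In the cAMP and protein kinase A list, 1 of 16 tested genes rose and 1 fell in SAT. The phosphodiesterase *Pde4b* rose (1.3, adjusted p = 0.0094), and the kinase subunit *Prkar2b* fell (−1.07, adjusted p = 0.0071) there. In the natriuretic peptide and cGMP list, 2 of 5 tested genes rose in SAT, the guanylate cyclase subunit *Gucy1a1* (1.17, adjusted p = 0.0043) and the phosphodiesterase *Pde5a* (0.68, adjusted p = 0.0153), and 0 fell. In VAT 0 passed in either direction with edgeR, also at an unadjusted p below 0.05. In the insulin list, the receptor substrate *Irs1* fell in both tissues (−1.73 in SAT, adjusted p = 6.1e-07, and −1.58 in VAT, adjusted p = 1.9e-06), while *Irs2* rose in SAT (0.84, adjusted p = 9.6e-04). This made 1 of 7 higher and 1 lower in SAT, and 3 lower and 0 higher in VAT (1 higher at an unadjusted p below 0.05), with the kinase subunit *Pik3r1* (−0.93, adjusted p = 0.0010) and *Abhd15* (−0.67, adjusted p = 0.0174) as the others.

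Among the droplet proteins that work with the lipases, 3 of 10 tested genes rose and 1 fell in SAT, and 2 rose and 2 fell in VAT. The droplet coat protein *Plin2* rose in both tissues (1.35 in SAT, adjusted p = 1.9e-04, and 0.97 in VAT, adjusted p = 0.0052), and *Hilpda*, an inhibitor of adipose triglyceride lipase, rose in SAT from 8.72 ± 5.23 to 45.5 ± 16.7 CPM (2.38, adjusted p = 4.6e-04; SD, n = 4). *Cidea* fell in both (−1.59 in SAT, adjusted p = 0.0012, and −0.95 in VAT, adjusted p = 0.0404), and *Plin5* rose in both from a low level (1.87 in SAT, adjusted p = 0.0272, and 2.21 in VAT, adjusted p = 0.0194). *Plin1*, which holds *Abhd5* in the resting cell, fell in VAT (−0.61, adjusted p = 0.0370). *Plin1* is also 1 of the 4 adipocyte markers used above. Of the other neutral lipid hydrolases, 2 of 13 rose and 3 fell in SAT, and 1 rose and 5 fell in VAT. The carboxylesterase *Ces1d* was lower in both (−1.06 in SAT, adjusted p = 4.9e-04, and −1.15 in VAT, adjusted p = 2.2e-04), as were *Ces1f* (−1.37, adjusted p = 0.0061, and −2.03, adjusted p = 9.0e-04) and lipoprotein lipase *Lpl* (−0.40, adjusted p = 0.0242, and −0.63, adjusted p = 8.6e-04). The lysosomal lipase *Lipa* was higher in both (1.15 in SAT, adjusted p = 2.8e-04, and 0.79 in VAT, adjusted p = 0.0072), and *Aadac* was higher in SAT (4.25, adjusted p = 0.0020). *Aadac* had a lean mean of only 0.17 CPM, so its fold depends on the prior count. In glycerol handling, the water channel *Aqp1*, carried by vessels as well, rose in both tissues (0.82 in SAT, adjusted p = 0.0044, and 0.74 in VAT, adjusted p = 0.0082), and the dehydrogenase *Gpd1* fell in VAT (−0.79, adjusted p = 0.0101), which made 1 of 5 higher and 0 lower in SAT (1 lower at an unadjusted p below 0.05), and 1 higher and 1 lower in VAT.

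**Figure D5:**
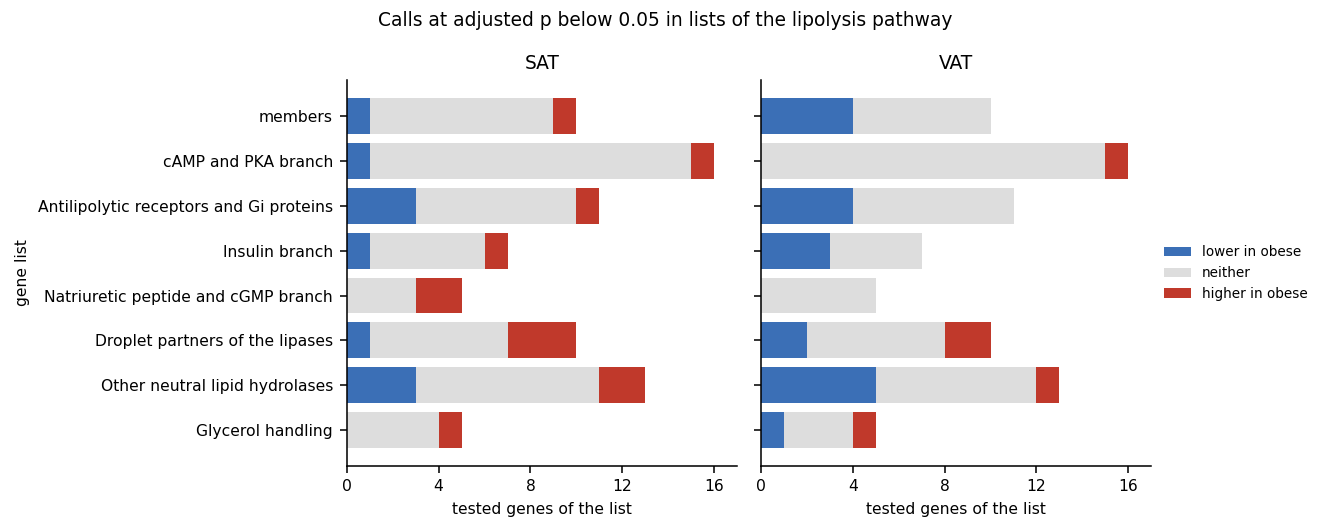
Number of tested genes (horizontal axis) called lower (blue), neither (gray) or higher (red) in obese mice at an adjusted p below 0.05, for the 10 members and 7 lists of the lipolysis pathway in SAT (left) and VAT (right). In VAT the members (4), the antilipolytic list (4) and the insulin list (3) hold only lower calls, and the natriuretic list holds none.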

How the data were processed

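Poly(A) RNA of 16 libraries was sequenced in pairs by strand-specific chemistry. The authors trimmed reads with Trim Galore 0.6.6, aligned them to GRCm39 with HISAT2 2.2.0, counted them on RefSeq transcripts with HTSeq 0.13.5 and used edgeR 3.34.0. The strand setting and the treatment of shared reads are not given in the sources used here. The deposited table holds raw counts and, beside them, CPM by the authors, equal to counts per total within 4.9e-10 and not used further. It has 130343 rows, 13 of them mitochondrial genes. RefSeq identifiers gave symbols to 81.95% of rows and 88.8% of the tested ones (GRCm38.p6 table, names only), and rows without a symbol were kept as they are.

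Rows, and counts summed per symbol, were tested in edgeR 4.0.16 under R 4.3.3 with TMM scaling by its quasi-likelihood F-test (legacy=TRUE, CPM above 1 in at least 3 of 16 libraries, Benjamini-Hochberg adjustment over all 13288 rows or 12185 genes), in 1 model of 4 groups. The standard error is the size of the log2 fold change divided by the root of F. Tissue contrasts and the difference of responses had the mouse as a block. SAT and VAT were matched by the diet and number that their labels share, which were read as the same mouse. Deviations from group means correlated between −0.0014 and 0.18 (median 0.076) in 8 pairs of 1 mouse, and between −0.15 and 0.12 (median −0.037) in 24 pairs of different mice of 1 diet. In the diet contrasts a mouse has 1 diet, so it cannot be a block there. On simulated data with 200 of 12185 genes changed by 1.5 on the log2 scale, edgeR called all in SAT (100%) and VAT (100%) with 5.66% and 3.85% false calls, and 86% and 88% in the test of the difference. The diet changes and differences called for the members over summed counts were smaller than 1.5, and recovery at their size was not simulated. Libraries of 1 group (24 pairs, r from 0.907 to 0.983) differed by more than counting error.

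Adipocyte ratios were tested by exact permutation (scipy 1.17.1). Alternatives were RLE size factors, no filter, DESeq2 1.42.0, legacy=FALSE, 1 tissue alone, a replicate block, limma 3.58.1 voom with a random effect of mouse, no mouse block, other markers, a pseudocount of 2 CPM, each mouse left out, and, added after the data were seen, both shallow libraries left out and all 7 listed adipocyte markers with counts in place of 4. The genes named are the 10 members with their tested rows, up to 3 genes per pathway list and tissue with the smallest adjusted p below 0.05, and the 3 genes most like *Pnpla2*, *Lipe*, *Adrb3* and *Npr3* in log2 CPM (prior count 2). Outside this rule, the genes that overlap a member, the adipocyte markers and *Scd1* were named, and *Hcar1*, *Ptger3* and *Hcar2* were set side by side after their values were seen. The members and lists were chosen with earlier results of these data known. Some genes that this rule names are not reported here.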

Additional observations from a re-analysis of the deposited data

Results flagged for a closer look

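In 1 of 40 groups of 4 libraries a single library stood apart, a rate that chance alone gives in about 1 of 20 groups: *Pde3b* in SAT of lean mouse 3 measured 2.01 CPM against 1.07 to 1.12 CPM in the other lean mice, a gap of 0.938 of the range. The diet response differed between tissues for 2 members. The log2 fold change in VAT was lower than that in SAT by a difference of −0.67 for *Lipe* and −1.0 for *Hcar2*, tested with the mouse as a block.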

How the results depend on the processing

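Over summed counts, the call of *Lipe* in VAT, *Npr3* in VAT, *Hcar2* in VAT and *Adrb3* in SAT held under every alternative run. With DESeq2 the higher members in SAT went from 1 to 0, for rows and for gene sums, and without single mice they ranged from 0 to 1. Without single mice, lower rows numbered 1 to 3 in SAT, and in VAT 2 to 8, against 3 and 6 in the full data, with 1 in SAT without lean mouse 2 and 2 in VAT without obese mouse 4. Members with a lower response in VAT than in SAT went from 2 to 0 with no mouse block, and ranged from 1 to 3 without single mice. Over all genes, the lower and higher calls of this difference were 197 and 104 in the full data, 99 and 40 with no mouse block, and 89 lower and 46 higher without obese mouse 4. They were 302 lower with no filter and 180 higher with DESeq2. Calls over all genes fell without single mice to 493 higher in SAT (774 in the full data), 540 higher (839) and 307 lower (643) in VAT, and 564 lower in lean (880) and 1136 lower in obese mice (1834) for tissue, and calls over rows to 541 higher (825) and 395 lower (643) in SAT and 559 higher (909) and 275 lower (542) in VAT. Lean and obese mice of 1 number are different animals. Their deviations correlated between −0.093 and 0.17 (median 0.067, 8 pairs of a tissue), against −0.15 to 0.12 (median −0.022) for other numbers, and 7 of 16 libraries correlated best with their own number. No label ties the numbers across diets, so they were not taken to pair the libraries. The correlations do not decide this, since those of SAT and VAT of 1 mouse were of like size (median 0.076). In VAT the pairs of 1 number had 0.17, 0.094, 0.16 and 0.083, and in SAT 0.022, −0.093, 0.052 and −0.022. What lies behind these values was not tested. The replicate block, which ties lean and obese mice by number, moved the calls over all genes to 855 higher and 665 lower in SAT and 899 higher and 694 lower in VAT. It gave *Adora1* 0.0051 in SAT as adjusted p and changed no member call.

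Some values turned in sign, none of them called. In VAT the diet response of *Pde3b* (0.060) was −0.053 with legacy=FALSE and ranged from −0.24 to 1.43 without single mice, and that of *Adora1* (0.13) was −0.067 with the replicate block, −0.15 with limma voom, −0.15 without the 2 shallow libraries and ranged from −0.36 to 0.50 without single mice. *Pde3b* in VAT against SAT of obese mice (−0.14) was 0.22 without the 2 shallow libraries and −0.58 to 0.27 without single mice. Without single mice the difference between tissues ranged from −0.48 to 0.059 for *Pnpla2* and from −0.037 to 0.41 for *Adrb3*, and VAT against SAT of lean mice from −0.39 to 0.042 for *Abhd5* and from −0.29 to 0.22 for *Adora1*. Relative to adipocyte markers, *Lipe* in SAT (0.035) was −0.022 without *Fabp4* and −0.076 to 0.15 without single mice, and *Mgll* in VAT (−0.49) was 0.12 with a pseudocount of 2 CPM. There the ranges without single mice were −0.47 to 0.53 for *Pnpla2*, −0.021 to 0.30 for *Abhd5* and −0.45 to 0.15 for *Hcar2*, and SAT held 2 members at an unadjusted permutation p below 0.05 without *Adipoq*, *Cidec* or *Fabp4*, against 1, and 3 with all 7 listed markers. With 1 mouse left out this test has 35 assignments and cannot go below 0.0571, so it says nothing about stability. The causes were not tested. Among the members, total counts were lowest for *Pde3b* (157) and *Mgll* (227), followed by *Pnpla2* (1309) and *Adora1* (1480). TMM and RLE scaling put the median of all genes within 0.02 of 0, and totals alone would put it at −0.20 in SAT.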

Other observations

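Genes that overlap a member on the opposite strand had levels of their own beside the 3 described. The noncoding 4933406I18Rik, which overlaps *Pde3b*, had 633 counts against 157 for *Pde3b* and was lower in VAT than in SAT of obese mice (log2 fold change −0.91, adjusted p = 0.0128). *Gm45470* followed *Adrb3* in tissue as well, with log2 fold changes of 1.94 (lean) and 1.84 (obese) in VAT against SAT, and *Gm5144* followed *Npr3* with −1.28 and −1.23. Its diet response in SAT was −0.69 (adjusted p = 0.0378), where that of *Npr3* had an adjusted p of 0.14. In VAT, where *Npr3* was called (−0.93, adjusted p = 0.0063), *Gm5144* was not (−0.60, adjusted p = 0.135). *Mybph*, which overlaps *Adora1*, had 0 counts in all libraries.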
